A study of Mus musculus with 2 samples.

Results

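Integrins are receptors built from 1 α and 1 β subunit that span the plasma membrane, bind extracellular matrix outside the cell and connect to actin through adaptor proteins inside it. The α subunit largely sets the ligand, so α1 and α11 bind collagens, α3 and α6 bind laminins, and α5, α8 and αv bind ligands that carry an Arg-Gly-Asp motif, such as fibronectin and vitronectin. The β1 chain pairs with most of these α subunits, and β5 pairs with αv. In adipose tissue, mesothelial cells line the surface of the depot on a basement membrane, whereas stromal progenitor cells lie within a collagen-rich matrix and give rise to adipocytes.

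Described here are 9 integrin genes, 7 α subunits (Itga1, Itga3, Itga5, Itga6, Itga8, Itga11 and Itgav) and 2 β subunits (Itgb1 and Itgb5), listed by symbol among the 31054 genes counted. The list was chosen with earlier results of these data known, so its counts beside shares of all genes are a description only. The other 17 integrin subunits of the mouse are given as a comparison. The cells came from gonadal white adipose tissue (gWAT) of 18-month-old male p16-CreERT2/R26-LSL-tdTomato mice that had received tamoxifen. In these mice, Cre is made under the control of the p16 gene and, once tamoxifen activates it, removes a stop cassette in front of tdTomato, so Tom+ cells are those that had p16 promoter activity at that time and their descendants. Cells negative for CD31 and CD45, markers of endothelial and blood cells, were sorted into Tom+ and Tom- cells, and 1 droplet library was made from each. The number of mice behind each library is not given in the sources used here.

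With 1 library per group there was no test, and a difference between Tom+ and Tom- cells cannot be told apart from a difference between the preparations. Levels are UMIs of a gene per 1000000 summed UMIs (CPM), where a unique molecular identifier (UMI) marks the 3′ end of 1 captured transcript, so that a level does not scale with transcript length. Ranges in parentheses are 95% intervals (exact Poisson for a level, exact Clopper-Pearson for a share or a ratio) and cover counting error only. In bulk sums of this kind, fewer cells with a transcript and fewer transcripts per cell cannot be told apart, and shares of cells are therefore given as well.

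Quality control kept cells above 1000 and below 7000 genes with mitochondrial UMIs under 8%, which were 3524 Tom+ and 6717 Tom- cells. A cell with at least 10 UMIs of Msln, Upk3b, Krt19, Lrrn4 and Upk1b together was called mesothelial, and a cell with under 5 was called stromal. This gave 250 Tom+ and 1887 Tom- mesothelial cells, and 3263 Tom+ and 4800 Tom- stromal cells. The 11 Tom+ and 30 Tom- cells with 5 to 9 such UMIs were left unassigned. Summed UMIs came to 5322983 and 32355904 in Tom+ and Tom- mesothelial cells and to 51104409 and 57883866 in stromal cells. Few cells lay near the limits, with 4 Tom+ and 46 Tom- cells at 3 or 4 UMIs and 1 and 36 cells at 10 to 14.

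The class names were checked on genes outside the rule. Of 12 further mesothelial markers, 10 had a mean of 5 CPM or more, and all 10 were at least 2-fold higher in mesothelial cells among Tom+ cells, as were 9 among Tom- cells. Of 10 stromal progenitor markers, 9 and 8 were at least 2-fold lower there. Stromal cells are a mixture, as 149 Tom+ and 68 Tom- stromal cells held at least 100 immunoglobulin UMIs. The summed list of 10 immune genes stood at 59938 CPM in stromal cells of the Tom+ and 14485 CPM in those of the Tom- library, against 1045 and 253 CPM in mesothelial cells. Summed endothelial markers were at 135 and 91.8 CPM in Tom+ and Tom- mesothelial cells and at 8.88 and 10.5 CPM in stromal cells, and Kdr alone had 119 and 81.5 CPM of the former. Summed over their lists, mural markers were at 22.0 to 68.2 CPM and Schwann cell markers at 1.51 to 4.48 CPM over the 4 groups. The Schwann gene Sox10 was at 0 in both Tom+ groups, and the endothelial gene Cdh5 was at 0 in Tom+ mesothelial cells. The libraries listed 2224 barcodes in common, of which 9 passed the filter in both, and 506 passing Tom+ and 284 passing Tom- cells carried such a barcode. In mesothelial cells, tdTomato RNA had 780 CPM when sorted Tom+ and 8.25 CPM when sorted Tom-, and in stromal cells 211 and 13.1 CPM. Cdkn2a, which encodes p16, was at 12.4 and 8.47 CPM in mesothelial cells and at 4.66 and 5.79 CPM in stromal cells.

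Among the 8 of these subunits with a mean of at least 5 CPM over the classes, those with the most unequal levels were Itga3, high in mesothelial cells, and Itga11, high in stromal cells. Their promoter sequences upstream of the first exon are shown because they stand for the opposite ends of these values. They come from RefSeq on GRCm38.p6, at chr11:95076802-95076964 on the minus strand for Itga3 and at chr9:62677605-62677825 on the plus strand for Itga11. Capitals mark matches to any of 6 short motifs searched on both strands.
Itga3: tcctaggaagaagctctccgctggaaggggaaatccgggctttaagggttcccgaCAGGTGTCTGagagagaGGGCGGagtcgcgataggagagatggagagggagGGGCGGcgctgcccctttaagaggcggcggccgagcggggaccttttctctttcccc
Itga11: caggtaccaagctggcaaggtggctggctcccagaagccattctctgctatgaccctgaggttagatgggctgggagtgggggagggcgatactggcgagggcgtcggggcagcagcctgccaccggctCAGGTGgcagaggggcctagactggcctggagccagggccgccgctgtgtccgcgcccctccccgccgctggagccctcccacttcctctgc

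On GRCm38, with the GENCODE vM21 annotation, the α genes lie at chr13:114953096-115101964 (Itga1, ENSMUSG00000042284, minus strand), chr11:95044474-95076801 (Itga3, ENSMUSG00000001507, minus), chr15:103344286-103366763 (Itga5, ENSMUSG00000000555, minus) and chr2:71745616-71858416 (Itga6, ENSMUSG00000027111, plus). Itga8 (ENSMUSG00000026768) lies at chr2:12106632-12301922 on the minus strand, Itga11 (ENSMUSG00000032243) at chr9:62677826-62783982 and Itgav (ENSMUSG00000027087) at chr2:83724397-83806916, both on the plus strand. The β genes Itgb1 (ENSMUSG00000025809) and Itgb5 (ENSMUSG00000022817) lie on the plus strand at chr8:128685654-128733200 and chr16:33829665-33949338. Itga6, Itga8 and Itgav are thus on the same chromosome.

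The motifs were GGGCGG (Sp1), CANNTG (E-box), TGANTCA (AP-1), GGAATG (TEAD), CAGAC (Smad) and CCGGAA (Ets). In Itga3 the capitals hold 2 Sp1 matches, 1 E-box and 1 Smad match, the last overlapping the E-box, and in Itga11 they hold 1 E-box. Of the 9 subunits, 8 matched an entry of the promoter table and Itga6 did not. Over the full 300-base windows, which reach 250 bases before and 50 after the start, the Sp1 letters occurred 3 times in Itga3 and Itgb5, 2 times in Itga5, 1 time in Itgav and Itgb1, and in no window of Itga1, Itga8 or Itga11. They were present in 35.7% of all 32851 promoter windows, the E-box letters in 72.3%, Smad in 49.6%, Ets in 14.9%, TEAD in 14.7% and AP-1 in 7.81%. The TEAD letters were found in Itgb1 alone and the AP-1 letters in none of the 8. These matches describe letters in a window and were not measured as binding sites.

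Itgb1, the common partner chain, was the most abundant of the 9 transcripts in all 4 groups. Mesothelial cells had 255 CPM (241 to 268) when Tom+ and 240 CPM (235 to 245) when Tom-. Stromal cells had 263 CPM (258 to 267) when Tom+ and 265 CPM (260 to 269) when Tom-. The levels therefore spanned a narrow range. In mesothelial cells Itgav followed at 96.4 CPM (Tom+) and 93.4 CPM (Tom-), then Itgb5 at 59.7 and 60.8 CPM. Below these, Itga1, Itga3 and Itga5 lay close together in Tom+ mesothelial cells, at 27.6 CPM (23.3 to 32.5), 26.1 CPM (22.0 to 30.8) and 24.6 CPM (20.6 to 29.2), with overlapping intervals. In Tom- mesothelial cells the same genes were ordered Itga5, Itga3 and Itga1, at 30.8, 27.3 and 22.7 CPM, with the intervals of Itga5 and Itga3 just overlapping. In stromal cells the order was Itgb1, Itgb5, Itga5, Itgav, Itga11, Itga1, Itga6, Itga3 and Itga8 in both libraries, and there the intervals of Itga3 and Itga8 alone overlapped between neighbours.

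**Figure D1:**
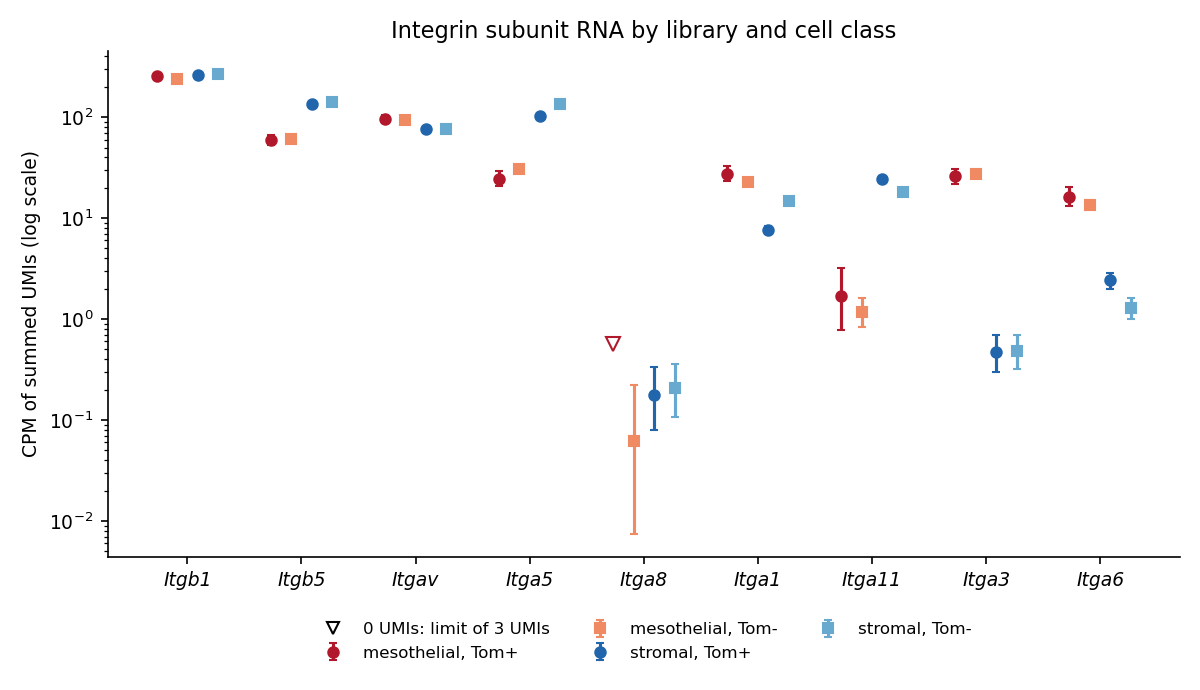
CPM of summed UMIs (log scale) for the 9 integrin subunits in mesothelial and stromal cells of the Tom+ and Tom- libraries, with exact Poisson 95% intervals that cover counting error only; the open triangle is the level that 3 UMIs would give where 0 were found. Itgb1 lies at 240 to 265 CPM in every group, whereas Itga3 lies at 26.1 to 27.3 CPM in mesothelial and 0.470 to 0.484 CPM in stromal cells.

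The first comparison asked which integrin subunits differ between mesothelial and stromal cells of the same library. The laminin-binding subunits Itga3 and Itga6 were higher in mesothelial cells, the fibronectin receptor subunit Itga5, the collagen receptor subunit Itga11 and Itgb5 were higher in stromal cells, and Itgb1 and Itgav were near equal. Of the 8 subunits with a mean of at least 5 CPM over the classes in the Tom+ library, 3 were at least 2-fold higher in mesothelial cells, where 13.1% of 10240 genes were, and 3 at least 2-fold lower, where 10.1% were. In the Tom- library 2 of 8 were higher (11.9% of 10019 genes) and 3 lower (9.22%). Itga3, Itga6 and Itga11 reached the mean of 5 CPM only through the class where they were high. They could therefore hardly enter these counts except as different, and the shares of all genes passed the same filter. The median log2 ratio of the 8 was 0.15 in the Tom+ and 0.079 in the Tom- library, beside 0.11 and 0.14 over all genes measured. Scaling by median-of-ratios size factors moved every one of these log2 ratios by -0.16.

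Itga3 encodes the α3 chain of the laminin receptor α3β1. Mesothelial cells had 26.1 CPM (22.0 to 30.8) when Tom+ and 27.3 CPM (25.5 to 29.1) when Tom-, against 0.470 CPM (0.301 to 0.699) and 0.484 CPM (0.321 to 0.699) in stromal cells. The counting intervals of the summed levels did not overlap between the classes in either library, which does not describe single cells. The log2 ratio of mesothelial over stromal was 5.80 (5.16 to 6.49) in the Tom+ and 5.82 (5.27 to 6.41) in the Tom- library, at percentiles 98.7 and 99.1 of the genes measured. The stromal level was 1.80% and 1.77% of the mesothelial level. Over the 10 mesothelial markers measured, the corresponding figures ran from 0.110% (Muc16) to 35.6% (Wt1) in the Tom+ and from 0.545% (Krt7) to 51.3% (Wt1) in the Tom- library, so Itga3 lay inside their range. The part of carried-over RNA in the stromal Itga3 level was not tested.

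Itga6 encodes the α6 chain, which pairs with β1 or β4 in laminin receptors. Its level in mesothelial cells was 16.3 CPM (13.1 to 20.2) when Tom+ and 13.6 CPM (12.4 to 15.0) when Tom-. In stromal cells it was 2.41 CPM, from 123 UMIs, and 1.28 CPM, from 74 UMIs. The log2 ratios were 2.76 (2.35 to 3.17) and 3.41 (3.06 to 3.79). Itgb4, the other partner chain of α6, is not among the 9 subunits. It was at 8.64 and 7.97 CPM in mesothelial cells and at 0.607 and 0.760 CPM in stromal cells, so both chains of α6β4 were on the mesothelial side.

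Itga5 encodes the α5 chain of the main fibronectin receptor. Its mesothelial level was 24.6 CPM (20.6 to 29.2) among Tom+ cells, 30.8 CPM (29.0 to 32.8) among Tom- cells, and its stromal level 103 CPM (101 to 106) and 135 CPM (132 to 138), respectively. Every stromal level exceeded every mesothelial level, with log2 ratios of -2.07 (-2.33 to -1.82) and -2.13 (-2.23 to -2.03). With cells of at most 5000 genes these ratios were -2.47 and -2.39, beyond the counting intervals. Without barcodes listed in both libraries they were -2.35 and -2.23. Itgb5, the αv partner that binds vitronectin, was at 59.7 and 60.8 CPM in mesothelial cells and at 136 and 142 CPM in stromal cells. Its log2 ratios were -1.18 (-1.35 to -1.02) and -1.23 (-1.30 to -1.15). Itgav itself differed little, with log2 ratios of 0.35 (0.22 to 0.48) and 0.30 (0.23 to 0.37), which were 0.19 and 0.14 with the size factors. Itgb1 had -0.045 (-0.13 to 0.035) and -0.14 (-0.18 to -0.10), and the Tom+ value took the other sign under 2 of 11 alternatives.

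The collagen-binding subunits went in opposite directions. Itga11, the α11 chain of a fibrillar collagen receptor known from fibroblasts, was found as 9 UMIs, 1.69 CPM (0.773 to 3.21), in Tom+ and 38 UMIs, 1.17 CPM (0.831 to 1.61), in Tom- mesothelial cells. In stromal cells it was at 24.5 CPM (23.2 to 25.9) and 18.3 CPM (17.2 to 19.4), giving log2 ratios of -3.86 (-4.99 to -2.93) and -3.96 (-4.47 to -3.49). Without barcodes listed in both libraries the Tom+ ratio was -5.92. With cells of at most 5000 genes there was no finite Tom+ ratio, and the Tom- ratio was -4.95. The low mesothelial level thus depended on which cells were kept. The mesothelial level was 6.89% and 6.43% of the stromal level, and over the 10 stromal markers the figures ran from 3.87% (Lum) to 148% (Cd34) in the Tom+ and from 7.24% (Dpt) to 143% (Cd34) in the Tom- library. Itga11 thus lay inside the range of these markers in the Tom+ library and just below it in the Tom- library. The part of carried-over RNA in the mesothelial Itga11 level was not tested.

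Itga1, the α1 chain of a receptor for basement membrane collagen, was on the mesothelial side, with mesothelial levels of 27.6 CPM (23.3 to 32.5) among Tom+ and 22.7 CPM (21.1 to 24.5) among Tom- cells. Stromal cells had 7.63 CPM (6.89 to 8.43) in the Tom+ and 14.9 CPM (13.9 to 15.9) in the Tom- library. The log2 ratio was 1.86 (1.57 to 2.13) in the Tom+ library and 0.61 (0.47 to 0.76) in the Tom- library. The 2 ratios differed by 1.24 (0.93 to 1.55, a Wald interval for counting error). The same difference was -0.65 (-1.18 to -0.12) for Itga6 and 0.10 (0.0059 to 0.19) for Itgb1. Intervals of the other subunits compared spanned both signs. For Itga1, further settings were as follows. The Tom+ ratio was 1.30 without barcodes listed in both libraries and 1.43 with cells of at most 5000 genes. With stromal cells of at least 10 stromal marker UMIs and under 3 UMIs of other lineages, it was 0.95, below 2-fold, and the Tom- ratio was 0.64. That setting kept 65 Tom+ and 1986 Tom- stromal cells. In GENCODE vM21, Itga1 shares exon sequence on its strand with the predicted gene Gm49395, and no other subunit had such an overlap. Whether this made the Itga1 counts uncertain was not tested.

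Itga8, the α8 chain found in mesenchymal cells of several organs, was found as few UMIs. It had 0 UMIs in Tom+ mesothelial cells, which allows up to 0.564 CPM, and 2 UMIs in Tom- mesothelial cells. Stromal cells had 9 UMIs, 0.176 CPM (0.0805 to 0.334), in the Tom+ and 12 UMIs, 0.207 CPM (0.107 to 0.362), in the Tom- library. No ratio between classes is given at these counts.

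**Figure D2:**
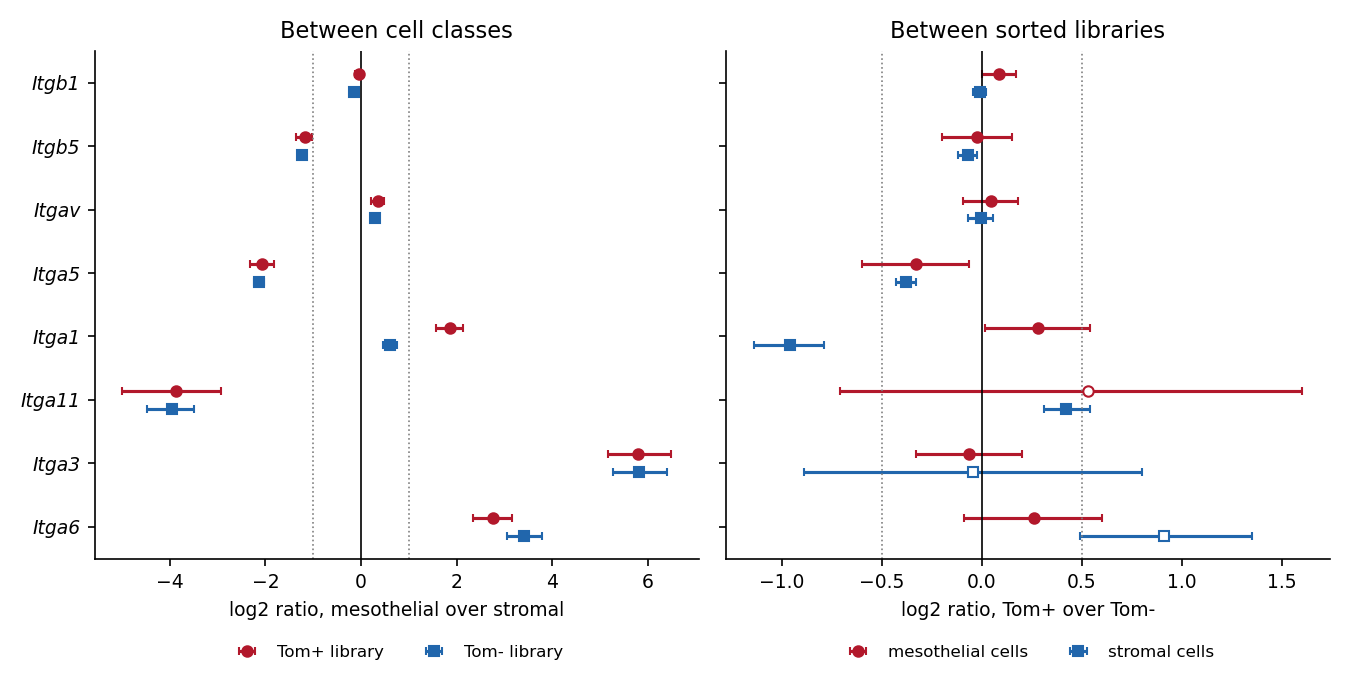
Log2 ratios of CPM for 8 integrin subunits (Itga8 left out for its low counts), on the left mesothelial over stromal cells in each library and on the right Tom+ over Tom- in each cell class, with exact 95% counting intervals; dotted lines mark log2 ratios of 1 on the left and 0.5 on the right, and open symbols are genes under a mean of 5 CPM. Itga3 reaches 5.80 and 5.82 and Itga11 -3.86 and -3.96 between the classes, whereas between the libraries Itga1 in stromal cells, at -0.96, is the one filled symbol past the line.

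Expressed as the makeup of all α subunit UMIs, mesothelial and stromal cells had different leading chains. Itgav made up 44.1% (41.2 to 47.0) of α subunit UMIs in Tom+ and 44.6% (43.5 to 45.8) in Tom- mesothelial cells, and 26.7% and 25.0% in stromal cells. Itga5 made up 11.3% and 14.7% in mesothelial cells and 36.6% (35.8 to 37.3) and 44.4% (43.7 to 45.1) in stromal cells, where it was the leading α chain. The laminin-binding pair of Itga3 with 11.9% and 13.0% and Itga6 with 7.47% and 6.51% was a sizeable fraction in mesothelial cells, and under 1% each in stromal cells. Itga11 made up 8.67% and 6.01% of α UMIs in stromal cells and 0.773% and 0.561% in mesothelial cells. The summed α level was 219 and 209 CPM in mesothelial cells and 283 and 304 CPM in stromal cells, while the summed β level was 355 and 337 CPM against 423 and 425 CPM.

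**Figure D3:**
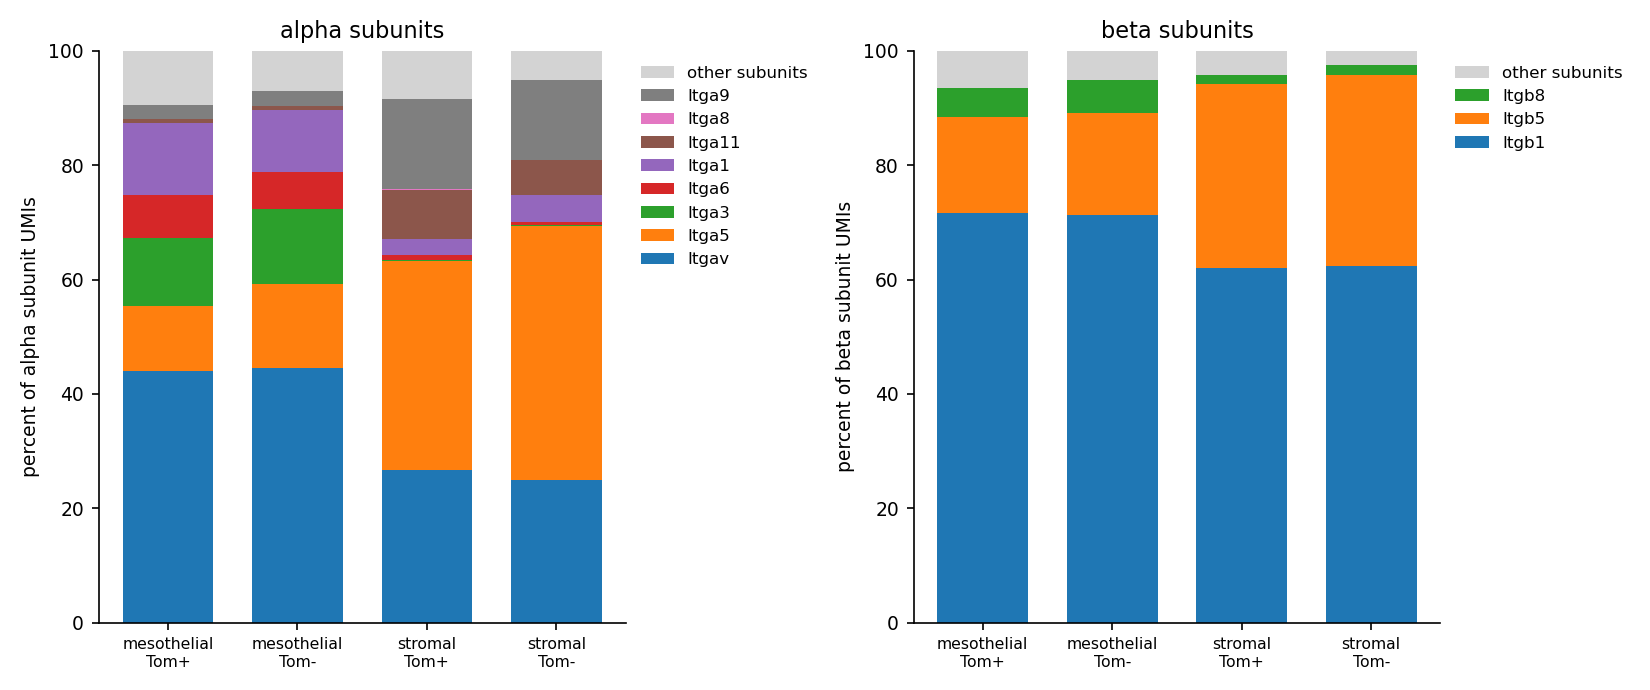
Percent of all α subunit UMIs (left) and all β subunit UMIs (right) taken by each integrin subunit in mesothelial and stromal cells of the Tom+ and Tom- libraries; light grey is the sum of the subunits not named. Itgav leads the α chains of mesothelial cells (44.1% and 44.6%), Itga5 leads those of stromal cells (36.6% and 44.4%), and Itgb5 takes 32.0% and 33.5% of β UMIs in stromal against 16.8% and 18.0% in mesothelial cells.

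The share of cells with at least 1 UMI was compared after each cell was thinned to 7563 UMIs, which left out 3 and 99 mesothelial and 271 and 647 stromal cells of the Tom+ and Tom- libraries. Before thinning, the median cell held 18602 UMIs (Tom+) and 14753 UMIs (Tom-) among mesothelial and 14235 and 11270 among stromal cells. Itgb1 was found in 80.2% of Tom+ and 82.8% of Tom- mesothelial cells and in 84.6% and 84.8% of stromal cells. Unthinned, and over all cells of each class, these shares were 96.8%, 94.8%, 92.9% and 90.7%. The order between classes thus changed with the thinning, which both equalized depth and left out shallow cells.

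Itga3 was found in 18.2% (13.6 to 23.6) of Tom+ and 19.0% (17.2 to 20.9) of Tom- mesothelial cells and in 0.234% (0.0941 to 0.481) and 0.289% (0.149 to 0.504) of stromal cells, where unthinned shares were 39.6%, 33.8%, 0.705% and 0.542%. Itga11 was found in 16.7% (15.4 to 18.1) of Tom+ and 12.4% (11.4 to 13.5) of Tom- stromal cells and in 0.810% and 0.615% of mesothelial cells, where unthinned shares were 27.1%, 17.4%, 2.80% and 1.80%. Each of the pair was thus found in a larger share of 1 class, and the part of free RNA in its share in the other class was not tested. Itga5 was found in 45.4% and 50.4% of stromal and 9.72% and 16.3% of mesothelial cells (60.1%, 60.3%, 26.4% and 28.6% unthinned). Itga8 was found in 0 of 247 thinned Tom+ and 0 of 1788 thinned Tom- mesothelial cells, for which the limit of 3 counts allows shares of cells with a UMI of up to 1.21% and 0.168%.

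The second comparison asked whether integrin subunits differ between Tom+ and Tom- cells of the same class. In stromal cells, 6 subunits had a mean of at least 5 CPM. None was higher by a log2 ratio of 0.5 or more in Tom+ cells, where 6.39% of 9778 genes were, and 1 was lower, where 4.26% were (10.7% either way). The median of the 6 was -0.040, beside 0.071 over all genes. The subunit that passed was Itga1, with 7.63 CPM in Tom+ and 14.9 CPM in Tom- stromal cells, which is -0.96 (-1.14 to -0.79) on the log2 scale and percentile 1.09 of the genes measured. The thinned share of stromal cells with Itga1 was 4.45% (3.73 to 5.25) in the Tom+ and 8.55% (7.72 to 9.44) in the Tom- library, and 7.91% and 12.5% unthinned, so the direction was the same in shares and in levels.

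Itga5 was also lower in Tom+ stromal cells, with a log2 ratio of -0.38 (-0.43 to -0.33), and Itga11 was higher, with 0.42 (0.31 to 0.54). Itgav had -0.0068 (-0.070 to 0.056), Itgb1 -0.010 (-0.044 to 0.023) and Itgb5 -0.069 (-0.12 to -0.023). For the last 3 the sign changed with the alternative used. Itga6 had a log2 ratio of 0.91 (0.49 to 1.35) at a low level, 2.41 against 1.28 CPM, and was outside the count. All 8 immune genes measured in these stromal groups were higher in Tom+ cells by 0.5 or more, with a median log2 ratio of 1.48. Their part in the integrin values was not tested, but the ratios were computed again without the stromal cells holding at least 100 immunoglobulin UMIs or under 10 stromal marker UMIs. Itga1 then had -0.94, Itga5 -0.29 and Itga11 0.52, the last passing 0.5. Requiring at least 10 stromal marker UMIs and under 3 UMIs of all other lineage markers left 65 Tom+ and 1986 Tom- stromal cells. There, Itga1 had -0.023, Itga5 -0.48 and Itga11 0.17. With size factors and all stromal cells, Itga11 had 0.35.

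Some of the stromal Itga1 came from few cells. Stromal cells with at least 3 UMIs of Calca and Ncam1 together, a set chosen after the data were seen, numbered 28 in the Tom+ and 103 in the Tom- library. These cells held Itga1 at 64.8 and 87.2 CPM. They gave 7.44% and 14.2% of the stromal Itga1 UMIs. Without them, Itga1 was at 7.13 CPM in the Tom+ and 13.1 CPM in the Tom- library, and the log2 ratio was -0.88. Their Itgb1 level was 279 CPM (Tom+) and 312 CPM (Tom-), against 263 CPM in the other stromal cells of both libraries. In the Tom- library, Itga5 was at 173 against 134 CPM and Itgb5 at 176 against 141 CPM. In the Tom+ library, Itga5 was at 127 against 103 CPM, but Itgb5 was at 130 against 136 CPM.

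In mesothelial cells, 7 subunits had a mean of at least 5 CPM, and none had a log2 ratio of Tom+ over Tom- past 0.5 in either direction, where 3.03% of 10014 genes were higher, 1.78% lower and 4.80% either. Their median was 0.045, beside 0.032 over all genes. Itgb1 had 0.085 (0.00091 to 0.17), Itgav 0.045 (-0.093 to 0.18), which took the other sign under 3 of 11 alternatives, Itgb5 -0.025 (-0.20 to 0.15) and Itga3 -0.062 (-0.33 to 0.20). Itga5 was lower in Tom+ cells here too, with -0.33 (-0.60 to -0.062). Itga6 had 0.26 (-0.087 to 0.60) and Itga1 0.28 (0.014 to 0.54). The value for Itga1 was -0.23 without barcodes listed in both libraries, which 100 of the 250 Tom+ mesothelial cells carried, and -0.15 with cells of at most 5000 genes, so its direction was not stable. The intervals of Itga1, Itga5 and Itga6 reached past 0.5, so at this depth a difference of that size was within counting error.

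How the subunits vary within stromal cells was described with a score that holds no integrin. Stromal cells of each library were ranked by the share of their UMIs in Dpp4, Pi16, Cd55, Sema3c, Anxa3 and Wnt2, genes of interstitial progenitors, and cut into 4 bins of like cell number, which are ranges of a score and not cell types. Itga11 was higher in each successive bin, at 10.7, 19.2, 28.5 and 44.1 CPM in the Tom+ and 9.93, 12.6, 18.2 and 31.8 CPM in the Tom- library. Itgb5 was at 90.4, 135, 154 and 175 CPM in the Tom+ and 100, 133, 156 and 178 CPM in the Tom- library. Itgav went from 56.3 CPM in the lowest to 96.8 CPM in the highest Tom+ bin, and from 61.4 to 99.3 CPM in the Tom- library. Itga1 was lowest in the highest bin, at 4.36 CPM (Tom+) and 8.38 CPM (Tom-), and at 7.79 to 9.75 and 16.3 to 18.3 CPM in the other bins.

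Of 6 subunits at 5 CPM or more, 4 were higher by a log2 ratio of 0.5 or more in the highest over the lowest bin of the Tom+ library, where 26.0% of genes were, and 1 lower, where 6.95% were (32.9% either way). In the Tom- library 3 were higher (12.1%) and 1 lower (8.59%), with 20.7% of genes either way. The lowest Tom+ bin held 122 of the 149 cells rich in immunoglobulin. When these cells and those under 10 stromal UMIs were left out before ranking, 2 of 6 subunits were higher in the Tom+ library (9.89% of genes) and 3 in the Tom- library (9.86%), with 1 lower in each (10.5% and 9.93% of genes). Itga11 then had log2 ratios of 1.56 (Tom+) and 1.57 (Tom-), after 2.05 (1.79 to 2.31) and 1.68 (1.41 to 1.96) with all stromal cells. Itgb5 had 0.57 and 0.72, after 0.95 and 0.83, and Itga1 had -1.13 and -1.06, after -0.84 and -0.96. Itgav had 0.40 and 0.55, after 0.78 and 0.69. The gradients of Itga11, Itgb5 and Itgav kept their sign, and that of Itgav in the Tom+ library moved below 0.5. Itgb1 had 0.51 and 0.21 with all stromal cells and 0.13 and 0.11 without those cells.

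**Figure D4:**
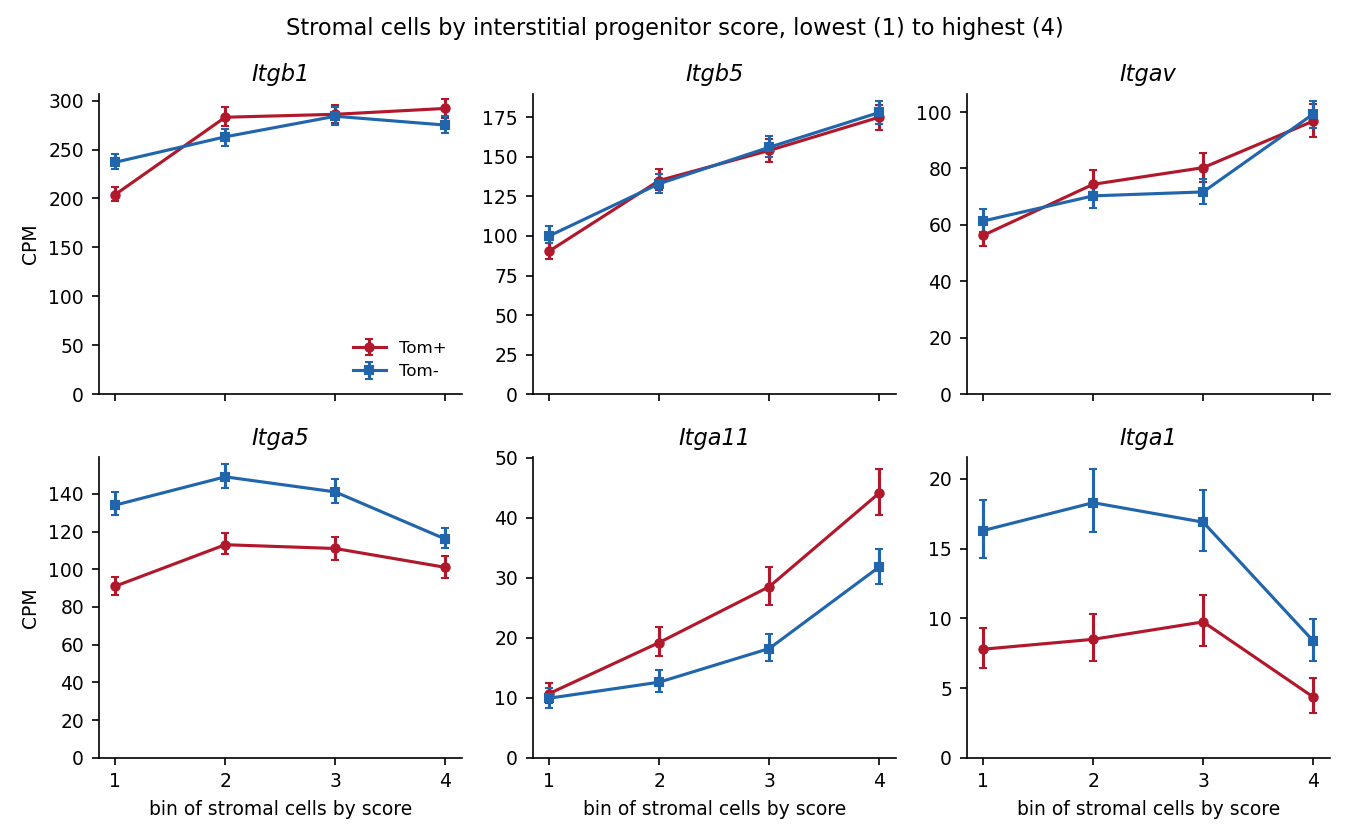
CPM of 6 integrin subunits in the 4 bins of stromal cells ranked by an interstitial progenitor score, in the Tom+ and Tom- libraries, with exact Poisson 95% intervals; all stromal cells are included and each panel starts at 0. Itga11 runs from 10.7 to 44.1 CPM (Tom+) and 9.93 to 31.8 CPM (Tom-), and Itga1 is lowest in bin 4, at 4.36 and 8.38 CPM.

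A second ranking used Icam1, Pparg, Fabp4, Cd36, Lpl and G0s2, genes of committed preadipocytes. In the Tom- library, Itgav was at 96.4, 84.4, 71.1 and 51.3 CPM from the lowest to the highest bin, a log2 ratio of -0.91 (-1.04 to -0.78), and Itga11 had -0.64 (-0.89 to -0.38). These were the 2 of 6 subunits lower by 0.5 or more, where 9.09% of genes were, and none was higher, where 14.5% were (23.6% either way). In the Tom+ library Itgav had -0.14 (-0.27 to -0.0075) and Itga11 -0.22 (-0.44 to 0.0063) with all stromal cells, but -0.53 and -0.58 without the immunoglobulin-rich cells and those under 10 stromal UMIs. Itga1 was the 1 subunit higher in the highest Tom+ bin (24.3% of genes were, 5.86% were lower and 30.2% either), at 4.48, 6.78 and 7.24 CPM in the lower bins. Its highest bin held 157 UMIs, against 60 in the lowest, and the log2 ratio was 1.43 (0.99 to 1.88). In the Tom- library Itga1 had -0.21 (-0.48 to 0.063), and 0.37 without the Calca and Ncam1 cells, 58 of which lay in its lowest bin.

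Among the other 17 integrin subunits, 4 had a mean of at least 5 CPM over the classes. Itga9, whose product pairs with β1 and binds tenascin, was on the stromal side, at 5.07 and 5.41 CPM in mesothelial and 44.7 and 42.5 CPM in stromal cells of the Tom+ and Tom- libraries. It made up 15.8% of stromal α UMIs in the Tom+ library and had more UMIs than Itga11 in stromal cells of both. Itgb8, a partner of αv that binds latent TGF-β, was on the mesothelial side, at 17.5 and 19.0 CPM against 6.93 and 7.55 CPM, with a log2 ratio of 1.33 in both libraries. Itgb3 had log2 ratios of 0.57 and 0.87 and Itga2b -0.38 and 0.11. These were 1 higher and 1 lower of 4 past 2-fold in each library. Over all genes, 13.1% (Tom+) and 11.9% (Tom-) were higher and 10.1% and 9.22% lower. Without barcodes listed in both libraries, Itgb8 had 0.83 in the Tom+ library, below 2-fold, and 1.20 in the Tom- library.

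The leukocyte subunits Itga4, Itgal, Itgb2 and Itgb7 stood at 4.72 to 5.36 CPM in Tom+ and 1.97 to 2.82 CPM in Tom- stromal cells. Without the immunoglobulin-rich cells and those under 10 stromal UMIs they were at 0.399, 1.15, 0.687 and 2.37 CPM in the Tom+ library and 0.397, 0.739, 0.577 and 1.55 CPM in the Tom- library. By contrast Itgb1 was at 285 and 271 CPM and Itga5 at 113 and 138 CPM in the same cells, neither of them lower than with all stromal cells.

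Intracellular partners were taken from a list of 26 adhesion adaptors, 24 of which had a mean of at least 5 CPM over the classes. Mesothelial cells had 6 of them at least 2-fold higher among Tom+ cells (13.1% of all genes were) and 5 among Tom- cells (11.9%), with none lower by that much (10.1% and 9.22%), and list medians of 0.31 and 0.21. The Tom+ count was 4 with size factors and 4 with each cell weighted equally. Those furthest on the mesothelial side were Parvb, an adaptor bound to integrin-linked kinase, at log2 ratios of 4.11 and 4.99, Tns3, a tensin, at 3.08 and 2.74, and Actn1, the actin crosslinker α-actinin, at 2.59 and 2.11. At the other end, Tns1 had -0.61 and -0.76, Tns2 -0.71 and -0.64, and Lims2 -0.34 and -0.37. The tensins were thus divided, with Tns3 on the mesothelial and Tns1 and Tns2 on the stromal side.

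Ligand genes showed a class pattern of their own. Of 10 laminin and nidogen genes measured, 4 in the Tom+ and 3 in the Tom- library were at least 2-fold higher in mesothelial cells (13.1% and 11.9% of all genes were). In each library 4 were lower by that much (10.1% and 9.22%). Lama5, the α5 laminin chain, had log2 ratios of 5.06 and 4.23 and Lamc3 5.01 and 3.95, whereas Lama2, the α2 chain, had -4.45 and -3.83. Lamb1 had -2.83 and -2.24, Nid1 -3.43 and -2.97 and Nid2 1.31 and 1.41. The list medians were -0.33 and -0.46. Laminin genes therefore differed between the classes in both directions, with Lama5 on the mesothelial and Lama2 on the stromal side.

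All 10 collagen genes were at least 2-fold lower in mesothelial cells of the Tom+ library (10.1% of all genes were) and 9 of 10 in the Tom- library (9.22%). Their medians were -1.84 and -1.46. The basement membrane collagens Col4a1 and Col4a2 had -3.63 and -3.92 in the Tom+ and -2.66 and -2.85 in the Tom- library. The smallest differences in the Tom- library were those of Col3a1, at -0.60, Col6a1, at -1.01, and Col1a2, at -1.04, which had -1.30, -1.31 and -1.46 in the Tom+ library. Col6a3 had -3.93 and -2.84. In stromal cells, the 10 collagen genes had a median log2 ratio of Tom+ over Tom- of 0.49, with 5 past 0.5 (6.39% of all genes were) and all 10 above 0. With size factors the median was 0.41 and 3 were past 0.5.

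Of 12 measured genes for ligands of the Arg-Gly-Asp class and related matricellular proteins, 7 in each library were at least 2-fold lower in mesothelial cells. Over all genes, 10.1% (Tom+) and 9.22% (Tom-) were. None was higher by that much (13.1% and 11.9% of all genes were), and the medians were -1.73 and -1.58. Vtn, which encodes vitronectin, had -3.86 and -3.83, Ltbp1, a binding protein of latent TGF-β, -4.23 and -3.69, and Postn, which encodes periostin, -5.17 and -3.66. At the other end, Ctgf had 0.31 and 0.26, Cyr61 -0.54 and -0.36 and Fbln5 -0.40 and -0.52. Vtn was also lower in Tom+ than in Tom- stromal cells, at 32.7 against 74.2 CPM, and Postn higher, at 440 against 217 CPM.

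Tetraspanins are membrane proteins that associate laterally with integrins, CD151 among them with α3 and α6. Of 7 in the Tom+ and 6 in the Tom- library at 5 CPM or more, 2 were at least 2-fold higher in mesothelial cells (13.1% and 11.9% of all genes were). In each library 1 was lower by that much (10.1% and 9.22%). Cd151 was at 320 and 337 CPM in mesothelial and 68.2 and 94.5 CPM in stromal cells, log2 ratios of 2.23 and 1.83, and Cd82 had 3.77 and 3.02. Cd63 had -1.60 and -1.42 and Cd9 -0.48 and -0.021, while Cd81 had 0.87 and 0.42 and Tspan4 0.63 and 0.33. Of the tetraspanins named, Cd151, Cd82, Cd81 and Tspan4 were on the same side as Itga3 and Itga6, whereas Cd63 and Cd9 were not.

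For each subunit, the genes with the most similar pattern were found among 2955 genes of at least 50 CPM, by Pearson's r of log2(CPM + 1) over 12 groups of cells (mesothelial, unassigned and 4 stromal bins in each library). The groups share their libraries and the unassigned ones are shallow, so r is a description. Itga3 was most like Atp1b1 (r = 0.988), Itga11 most like Txn1 (0.979), Itga5 most like Cyp1b1 (0.975), Itgb5 most like Antxr2 (0.975) and Itgav most like Gnb1 (0.972). Itga6 was most like Prpf8 (0.949), Itga1 most like Rasl11a (0.941), Itgb1 most like Rnase4 (0.919) and Itga8, on very few UMIs, most like Slc3a2 (0.843).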

How the data were processed

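The deposited files hold, per the labels, raw counts of UMIs for each gene and cell barcode from 1 droplet 3′ library of Tom+ and 1 of Tom- cells; the authors made these counts with Cell Ranger 3.0.2 on mm10, per the submitters' processing notes. The counts were used as deposited. Groups followed the labels of the libraries. The genes and gene lists described here were chosen with earlier results of these data known.

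Cells were kept with over 1000 and under 7000 genes and under 8% mitochondrial UMIs, and classed by 5 mesothelial genes. No doublet caller was run, and an alternative kept cells of at most 5000 genes. UMIs were summed per library and class and scaled to CPM, with exact 95% intervals for counting error only, because 1 library per group allows no test. Counts of genes were taken over those averaging 5 CPM or more in the groups compared, at 2-fold between classes and at a log2 ratio of 0.5 between libraries or bins of a score. Differences between ratios carry Wald intervals. A level of 0 was limited by 3 UMIs. Shares of cells were computed after thinning each cell to 7563 UMIs, the 10th percentile of depth.

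Besides the 9 subunits, each list was described by its counts and median, and at most the 3 highest and 3 lowest ratios of mesothelial over stromal cells in the Tom- library were named. Leukocyte integrins, Itgb4, and the Calca and Ncam1 cells were named after their values were seen, and so were a few genes at the ends of lists in the comparison of libraries. For likeness, the gene with the highest r is given. Alternatives changed scaling, filters, class limits, cell weighting and the cells kept.

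The level of 1 marker gene is not reported here. The ratio intervals were run on Poisson counts of 10032 genes, with 2 groups simulated from the summed profile of all Tom- barcodes. They covered 94.7% of true values, and 100% of 200 changed genes had the right sign. The simulation held counting error alone, as the intervals assume, so it cannot show how they cover variation between cells or libraries. Its totals were larger than that of Tom+ mesothelial cells. Python 3.11.15, numpy 2.4.6, scipy 1.17.1, pandas 2.3.3 and matplotlib 3.10.9 were used.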

Additional observations from a re-analysis of the deposited data

Results flagged for a closer look

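Itga1, the collagen-binding α1 chain, had a log2 ratio of Tom+ over Tom- of -0.96 in stromal cells and of 0.28 in mesothelial cells, that is, opposite directions in the cell classes of the same libraries. With 1 library per group the difference between these ratios was not tested across samples. The stromal value lay between -1.11 and -0.023 over the alternatives, and the mesothelial value between -0.23 and 0.29. The stromal end of -0.023 came from the setting that kept only 65 Tom+ stromal cells.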

How the results depend on the processing

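Of 316 alternative values of single subunits, 259 moved by less than their counting interval, 57 moved by more and 0 of those past a threshold changed direction. The counts of subunits at least 2-fold apart between classes, 6 in the Tom+ and 5 in the Tom- library, were 2 and 2 with genes of at least 20 CPM, where fewer genes were counted. With stromal cells by stromal genes and under 3 UMIs of other lineages they were 5 and 5. The Tom+ count there rested on 65 stromal cells and included Itga3 and Itga6, which had no finite ratio. The count between libraries in stromal cells, 1, was 0 with at least 20 CPM and 0 with stromal cells chosen by stromal genes and under 3 UMIs of other lineages. It was 2 with at least 1 CPM, 2 without barcodes in both libraries and 2 without immunoglobulin-rich cells and cells under 10 stromal UMIs. In mesothelial cells the count of 0 was 1 with cells of at most 5000 genes and 1 with at least 1 CPM. For the bins by interstitial score of the Tom+ library, 5 subunits were past the threshold, but 3 without immunoglobulin-rich cells and cells under 10 stromal UMIs, and 3 without barcodes in both libraries. For its bins by preadipocyte score, 1 was, but 3 without those same cells, 2 without barcodes in both libraries and 2 with a mitochondrial share under 5%. Where cells were left out, the cause was not tested. The alternatives without immunoglobulin-rich, macrophage-UMI or Calca and Ncam1 cells, and all those for the bins, were chosen after seeing the data. No paired analysis was possible because each group has 1 library, and the class comparison within each library came from no test.

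Few UMIs were counted for Itga8 in all groups, Itga11 in mesothelial cells and Itga3 in stromal cells, each at 38 UMIs or fewer.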

Other observations

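Myh11 and Notch3, genes of smooth muscle cells and pericytes, are among the 6 mural markers. Stromal cells with at least 3 UMIs of the pair together numbered 424 in the Tom+ and 240 in the Tom- library. Such cells were not shown to be mural. They held Itga11 at 14.9 and 7.78 CPM, against 26.3 and 19.0 CPM in the other stromal cells, and Itga5 at 112 and 175 CPM, against 102 and 132 CPM. Itga1 in them was at 12.9 CPM in the Tom+ library, against 6.64 CPM in the others, and at 13.9 against 14.9 CPM in the Tom- library. The set was chosen after the data were seen.

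The stromal cells with Calca and Ncam1 UMIs of the Tom- library held Itgav at 132 CPM, against 74.5 CPM in the other stromal cells, and Itga11 as 6 UMIs, 4.29 CPM, against 18.6 CPM. In the 28 such cells of the Tom+ library, Itgav was at 71.5 CPM against 75.6 CPM and Itga11 at 22.4 CPM against 24.6 CPM.

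Tom+ mesothelial cells held Itgam at 3.57 CPM and Itgb2 at 3.38 CPM, against 0.278 and 0.433 CPM in Tom- mesothelial cells. Without mesothelial cells holding at least 10 macrophage UMIs, which were 13 Tom+ and 2 Tom- cells, the levels were 0.806 and 0.403 CPM in the Tom+ and 0.217 and 0.372 CPM in the Tom- library.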
